A study of Mus musculus with 2 samples.

Results

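AP-1 is a dimer of basic leucine zipper proteins of the FOS, JUN and ATF families that binds short DNA elements in promoters and enhancers. Many of its genes are immediate early genes, which are transcribed within minutes of growth factor signalling or wounding, without prior protein synthesis. In stratified epithelia, to which the urothelium that lines the ureter belongs, FOS and JUN proteins are known for roles in the response to injury and in the expression of genes of differentiated squamous cells.

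The genes described here were Fos, Fosb, Fosl1 and Fosl2 of the FOS family, Jun, Junb and Jund of the JUN family, and Atf3, Egr1 and Ier3. They were found by symbol among the probes of the array, and all 10 were present among the 29923 genes measured. Together they had 11 of the 39429 probes, since Fosl2 had 2 and every other gene had 1.

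Total RNA of ureters from mouse embryos (NMRI strain, stage E18.5) was compared on 2 two-channel oligonucleotide arrays, 1 with female and 1 with male pools. Each array held RNA of Pparg-cKO ureters (genotype Pax2-cre/+; Pparg(fl/fl)) beside RNA of control ureters, whose labels read Pparg(fl/?), the second allele being unstated. According to the methods, the control embryos carried no cre and came from the litters of the mutants. PPARG is a nuclear receptor. In the ureter, the Pax2-cre transgene is active in the epithelium, and it is also active in the collecting ducts of the kidney. Every RNA was a pool of several ureters, and each genotype was present once per sex. The dyes were exchanged between the arrays, so sex, dye orientation and array cannot be told apart.

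The sign of each ratio needed a decision. The deposited value table, whose columns are titled Pparg-cKO versus control, correlated with the log2 ratio of red over green across probes at 0.99 on the female array and at -0.99 on the male one, which is opposite to the dyes given in the labels on both arrays. Directions are those of the deposited table, which is likely the right one because the titles, the study's text and its tissue sections go the same way. Should the dyes instead be as the labels say, every higher and lower is exchanged, while sizes, total counts and p-values stay. In the deposited direction, the probe of the targeted gene Pparg had a signal of 12357 in the Pparg-cKO and 6113 in the control pool on the female array, then 12930 and 6688 on the male one. This is a log2 ratio of 0.97 ± 0.02 (SD, n = 2), higher in the pools labelled Pparg-cKO. In tissue sections of the study, ureters of this genotype still made, at a raised level, a Pparg RNA that lacked the floxed exons. The place of the array probe relative to those exons was not analysed here, so it does not check the genotypes.

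The markers of the urothelium (9 of 9) and of smooth muscle (6 of 6) were well above background in all pools. Of 4 markers of fat, 3 were not well enough above background to be tested. The other, Adipoq, was well above background in every pool, at 12.3 in the Pparg-cKO and 85.9 in the control pool of the female array and at 8.24 and 13.1 in those of the male one, with log2 ratios of -1.73 and -0.25 (adjusted p = 0.532, limma). The summed signal of the 9 urothelial markers was 52816 in the Pparg-cKO and 84251 in the control pool of the female array, and 62979 and 74182 in those of the male one. Upk3a was the largest part of each sum. Of these markers, 2 were higher and 5 lower on both arrays, 2 passed 1.5-fold on both, and none was called by limma. The superficial cell markers Upk1a and Upk1b were the 2 past that fold, at 2.85-fold and 2.02-fold lower (adjusted p = 0.0685 and 0.109, limma). Both were called without the background offset (adjusted p = 0.000642 and 0.00545, limma) and with median centring (0.00629 and 0.0367). The general epithelial markers Epcam and Cdh1 were higher on both arrays, by a mean log2 ratio of 0.44 and 0.58 (adjusted p = 0.273 and 0.642, limma), with Cdh1 at 0.07 on the female array against 1.10 on the male one. In RNA of whole ureters, fewer cells of a type and less RNA per cell cannot be told apart.

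Of the 10 genes, Egr1 and Fosl1 had no promoter in the RefSeq table of assembly GRCm38.p6, and 8 promoters were found there. They are shown for the gene with the highest and the gene with the lowest mean ratio, Fosl2 and Fos, and for the genes in which a searched element was found. Each is written 5′ to 3′ on the strand of its gene and ends at the last base before the start site. Capitals mark a match to the core ACGTCA of the cyclic AMP response element, read on either strand, or to TGACATCA, an AP-1 element known from the Jun promoter.
Fosl2, chr5:32136322-32136471, + strand: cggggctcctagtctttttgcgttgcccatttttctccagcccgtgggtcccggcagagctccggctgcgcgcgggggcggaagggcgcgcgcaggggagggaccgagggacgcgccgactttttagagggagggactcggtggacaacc
Fos, chr12:85473740-85473889, + strand: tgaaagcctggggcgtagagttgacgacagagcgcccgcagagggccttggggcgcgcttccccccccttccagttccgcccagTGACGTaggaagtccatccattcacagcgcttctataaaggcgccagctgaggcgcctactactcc
Jun, chr4:95052223-95052322, - strand: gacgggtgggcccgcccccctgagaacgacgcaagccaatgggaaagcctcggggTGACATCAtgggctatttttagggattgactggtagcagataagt
Atf3, chr1:191183334-191183433, - strand: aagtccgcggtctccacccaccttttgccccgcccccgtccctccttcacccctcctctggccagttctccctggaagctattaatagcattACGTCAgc

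Both strands were searched over the 300 bases from 250 before to 50 after each start site, with elements chosen after the promoters had been seen. The core ACGTCA, which the full cyclic AMP response element TGACGTCA also contains, lay at -66 in Fos and at -8 in Atf3, counted from the start site to the first base of the match. Of all 32851 promoter windows, 7.51% held it. TGACATCA lay at -45 in Jun and was held by 3.62% of all windows. The AP-1 element TGACTCA was in none of the 8 windows against 5.20% of all, TGACGTCA in none against 1.79%, and the nuclear receptor element AGGTCA in none against 16.3%. A CArG box, bound by serum response factor, was in none against 1.63%, and a DR1 element, bound by PPARG with RXR, in none against 0.0396%. An element further than 250 bases before the start site, or in the promoter of Egr1 or Fosl1, would have been missed. These matches describe letters in a short window, not binding.

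Signals are given in scanner units, after correction for background and dye by the scanner software. They were not scaled between the arrays. A pool called high or low beside pools of the other array is thus described by its signal only. Fos, Fosl2, Jun, Jund, Egr1 and Atf3, 6 of 10, reached a signal of 100 on both arrays in whichever channel was brighter. Fosb, Junb and Ier3 stayed under that signal but were well above background in every pool. Fosl1 was not well above background in any pool, at 2.42 and 1.96 in the female and 1.84 and 2.06 in the male Pparg-cKO and control pools, and it was not tested. The probes lay, in mm9, at chr7:19888168-19888227 for Fosb, chr19:5455496-5455555 for Fosl1, chr4:94716928-94716987 for Jun, chr8:87501881-87501940 for Junb, chr8:73224436-73224495 for Jund, chr1:192994547-192994606 for Atf3 and chr17:35959528-35959587 for Ier3. Their place in exons or untranslated regions was not analysed here. The signals of different probes are not compared with each other, since a probe's brightness also depends on its sequence. Where pools of the genotypes are said to lie apart, the share of all genes tested with such a separation was not counted.

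**Figure D1:**
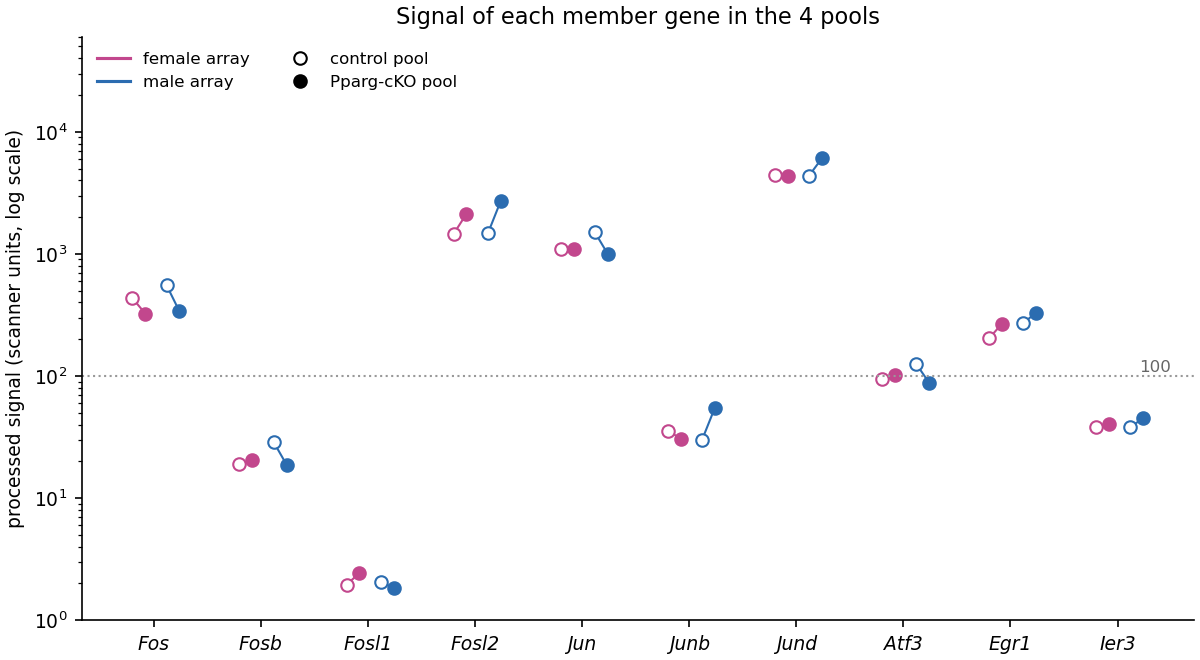
Scanner-processed signal (log scale) of the probe used for each gene, with open circles for control and filled circles for Pparg-cKO pools in the deposited direction, pink for the female and blue for the male array. Each line joins the pools of 1 array, and the dotted line marks the signal of 100 used in the fold rule. Fosl2 and Egr1 slope up and Fos slopes down on both arrays, while Jun, Junb, Jund, Fosb and Atf3 move visibly on the male array only, and Fosl1 lies at 1.84 to 2.42, near background.

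Against the study's criterion of a concordant change of at least 1.5-fold on each array at a signal of at least 100, none of the 10 genes passed. Among all genes with that signal, 258 of 14015 passed it (1.84%). Nor was any of the 9 tested genes called by limma, a moderated linear model with Benjamini-Hochberg adjustment, at an adjusted p under 0.05, where 169 of 22499 genes tested were called (0.751%). At an unadjusted p under 0.05 there were 3, Fos, Fosl2 and Egr1, beside 1914 of all genes tested (8.51%). The count was 2 with scanner-processed signals, where Egr1 had an unadjusted p of 0.0581 in limma. It was also 2 with the deposited table, where Fos had an unadjusted p of 0.0512 in limma. With 2 arrays and 1 residual degree of freedom, a p above the threshold does not show that a gene was unaltered. Each tested gene is therefore given with a 95% confidence interval. These intervals use the moderated standard error of limma, with prior degrees of freedom added to the residual one. Their width thus draws on the spread of all genes tested, and is not the precision of a gene's own 2 ratios, which the SD describes.

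By direction alone, Fosl2, Egr1 and Ier3 were higher in the Pparg-cKO pool on both arrays and Fos was lower on both. These are 3 of 9 higher, against 26.6% of all genes tested, and 1 of 9 lower, against 26.2%. The remaining 5, Fosb, Jun, Junb, Jund and Atf3, had opposite signs on the arrays. None of them reached 1.2-fold on each array in opposite directions, as 1.38% of all genes tested did, because their ratios on the female array were close to 0. With median centring in place of the loess curve, Jun and Atf3 were lower and Jund was higher on both arrays, by ratios on the female array of -0.02, -0.00179 and 0.000174.

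Fosl2 encodes FRA2, a FOS family protein without the strong transactivation domain of FOS. Its bright probe, at chr5:32460076-32460135 of mm9, had a signal of 2126 in the Pparg-cKO and 1457 in the control pool on the female array, then 2708 and 1472 on the male one. Both Pparg-cKO pools lay above both control pools, and the control pools were nearly equal. The log2 ratio, taken after background correction and loess normalisation of the spots, came to 0.46 on the female array against 1.00 on the male one. Its mean was 0.73 ± 0.38 (SD, n = 2), or 1.66-fold higher, with a 95% confidence interval of 0.33 to 1.13 and an adjusted p of 0.230 in limma. Without an offset in the background correction the mean was 0.72 and the adjusted p of limma 0.0423, so that Fosl2 was then called. A mean at least as high was found in 0.871% of all genes tested.

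The 8 spots of that probe all had a ratio above 0. On the female array they ranged from 0.21 to 0.68, and on the male array from 0.83 to 1.14, so the arrays did not overlap. The second Fosl2 probe, at chr5:32455088-32455147 of mm9, was dim. It read 1.82 in the Pparg-cKO and 3.64 in the control pool on the female array, then 6.21 and 3.37 on the male one, with log2 ratios of -0.16 and 0.19. In the female Pparg-cKO and the male control pool it did not stand well above background, so the probes disagreed on the female array where this one had only a bound. The median over both probes gave a mean log2 ratio of 0.37.

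Fos encodes the founding member of the family and is the textbook immediate early gene. Its probe, at chr12:86817900-86817959 of mm9, had a signal of 325 in the Pparg-cKO and 434 in the control pool on the female array, then 338 and 552 on the male one. Both Pparg-cKO pools lay below both control pools, and here the control pools differed more than the Pparg-cKO pools. The log2 ratios were -0.44 and -0.59, a mean of -0.52 ± 0.10 (SD, n = 2) or 1.43-fold lower, with a 95% confidence interval of -0.79 to -0.24. In limma the unadjusted p was 0.00493 and the adjusted p 0.213. All 8 spots were below 0, from -0.61 to -0.32 on the female array against -0.71 to -0.38 on the male one, and these ranges overlapped. A mean at least as low was found in 1.53% of all genes tested. Within the family, the log2 ratio of Fosl2 exceeded that of Fos by 0.91 on the female array against 1.59 on the male one.

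Fosb encodes a further FOS protein known for its induction in neurons. Its signal was low, 20.4 in the Pparg-cKO and 19.1 in the control pool on the female array, then 18.8 and 28.7 on the male one. Only the male control pool stood out, above the other three pools. The log2 ratios were 0.06 and -0.34, the second over 3 spots because 1 was flagged as an outlier, and the mean of -0.14 had an interval of -0.49 to 0.21 (adjusted p = 0.880, limma).

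**Figure D2:**
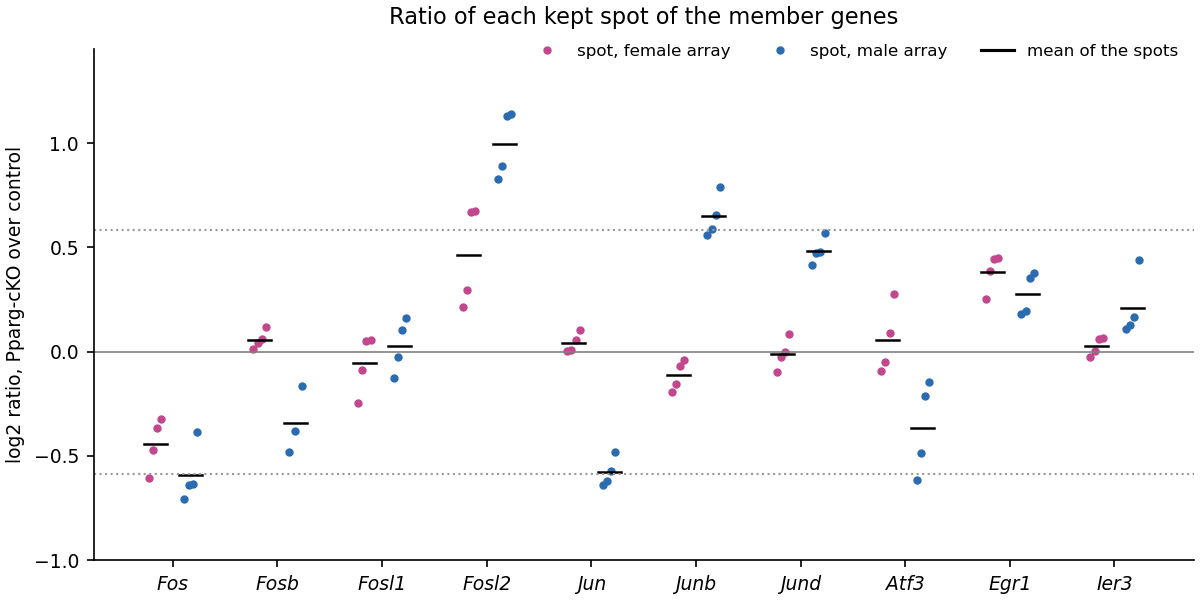
Log2 ratio of Pparg-cKO over control, in the deposited direction, for each kept spot of the probe used, with pink points for the female and blue points for the male array. Black bars are the mean of the spots on an array and dotted lines mark 1.5-fold. All 8 spots lie above 0 for Fosl2 and Egr1 and below 0 for Fos, while for Junb and Jun the spots of the arrays lie on opposite sides of 0. Spots are repeats within 1 hybridisation, not replicates of a pool.

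The JUN family supplies the partners of the FOS proteins, and its members also pair with one another. Jun read 1094 in the Pparg-cKO and 1089 in the control pool on the female array, then 997 and 1499 on the male one. The pools of the female array were alike, and on the male array the control pool was high. Log2 ratios of 0.04 and -0.58 gave a mean of -0.27 ± 0.44 (SD, n = 2), with an interval of -0.71 to 0.18 and an adjusted p of 0.777 in limma.

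Junb, which encodes a JUN protein able to restrain the activity of JUN, went the other way on the male array. Its signal was 30.7 in the Pparg-cKO and 35.7 in the control pool on the female array, then 54.9 and 30.0 on the male one. The male Pparg-cKO pool was the high one, and the other pools lay close together. The log2 ratios were -0.11 and 0.65, with spots from -0.19 to -0.04 and from 0.56 to 0.79, and the mean was 0.27 ± 0.54 (SD, n = 2) with an interval of -0.24 to 0.78 (adjusted p = 0.815, limma). Its SD between the arrays was exceeded by 2.83% of all genes tested.

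Jund encodes the JUN protein that is present in most resting cells and is induced little by growth factors. It read 4313 in the Pparg-cKO and 4411 in the control pool on the female array, then 6075 and 4373 on the male one. Again a single pool, the male Pparg-cKO pool, was high. The log2 ratios were -0.01 and 0.48, the mean was 0.24 ± 0.35 (SD, n = 2), and the interval was -0.15 to 0.62 (adjusted p = 0.770, limma). On the male array, then, Jun was lower in the Pparg-cKO pool while Junb and Jund were higher, and on the female array the log2 ratios of all 3 were between -0.11 and 0.04.

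Atf3 encodes a stress-induced factor that pairs with JUN proteins. Its signal was 103 in the Pparg-cKO and 93.7 in the control pool on the female array, then 88.1 and 126 on the male one. The male control pool was the highest and the male Pparg-cKO pool the lowest. The log2 ratios of 0.05 and -0.36 gave a mean of -0.16 with an interval of -0.51 to 0.20 (adjusted p = 0.861, limma).

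Egr1, an immediate early gene for a zinc finger factor that acts beside AP-1, is on chromosome 18 of mm9, with its probe at 35024395 to 35024454. The signal was 268 in the Pparg-cKO and 203 in the control pool on the female array, then 331 and 271 on the male one. On each array the Pparg-cKO pool was higher, but the male control pool lay level with the female Pparg-cKO pool, so the genotypes overlapped in signal. The log2 ratios were 0.38 and 0.28, with all 8 spots above 0, and the mean was 0.33 ± 0.08 (SD, n = 2) or 1.26-fold higher. Its interval was 0.06 to 0.60 and its adjusted p 0.471 in limma, and 5.03% of all genes tested had a mean at least as high.

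Ier3, an early response gene linked to cell survival, read 40.3 in the Pparg-cKO and 38.0 in the control pool on the female array, then 45.0 and 38.3 on the male one. The Pparg-cKO pools were the higher ones by a small margin. The log2 ratios were 0.03 and 0.21 and the mean of 0.12 had an interval of -0.17 to 0.40 (adjusted p = 0.873, limma). Of the immediate early genes Fos, Egr1 and Ier3, then, Fos was lower and the others were higher on both arrays.

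As a whole, the genes differed more between the pools of the male array than between those of the female array. In 8 of 9 the size of the log2 ratio was larger on the male array, Egr1 being the exception. The share of all genes tested with a larger size on that array was not counted. The median size came to 0.06 on the female array against 0.48 on the male one, beside 0.10 and 0.15 for all genes tested. No member passed 1.5-fold on the female array and 3 did on the male array, Fos, Fosl2 and Junb, where 2.68% and 6.74% of all genes tested did. The median SD between the arrays was 0.30 for the members and 0.12 for all genes tested. With median centring, Fos was at -0.52 on the female array against -0.31 on the male one, so that Fos in place of Egr1 was the exception and no longer passed 1.5-fold on the male array. The SD between spots of a probe on an array ran from 0.04 to 0.24 over the probes used.

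**Figure D3:**
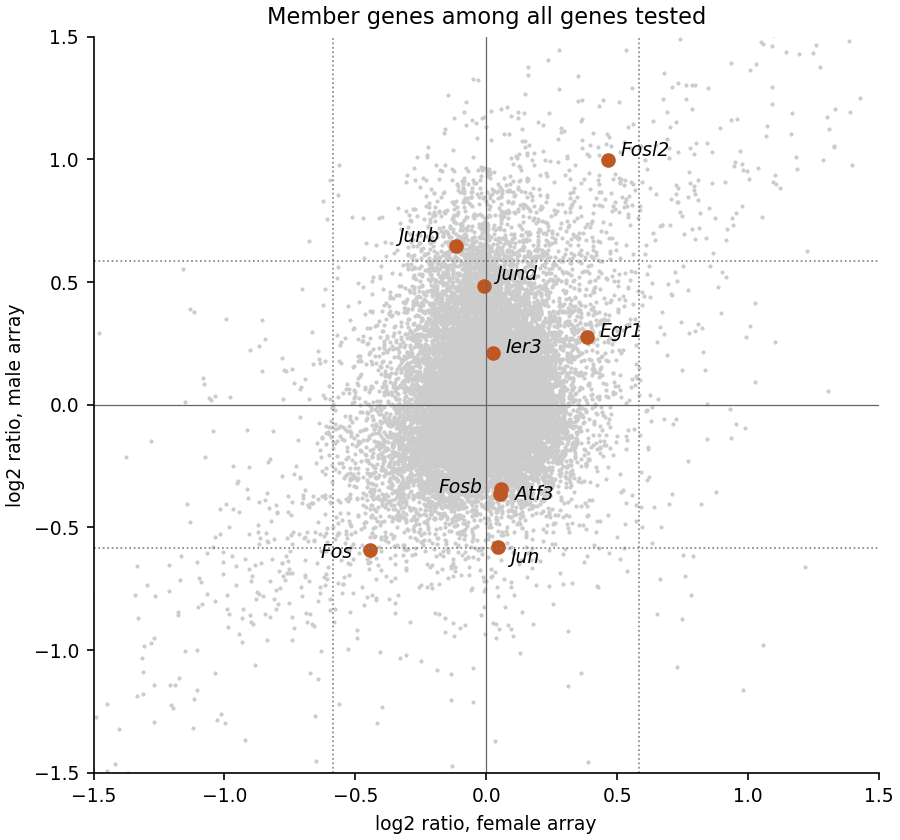
Log2 ratio of Pparg-cKO over control on the female array (x axis) against the male array (y axis), in the deposited direction, with all 22499 genes tested in grey and the 9 tested member genes in orange. Dotted lines mark 1.5-fold, and 117 genes lie outside the plotted range of 1.5 on either axis. Most of the member genes spread up and down along the vertical line at 0, while Fosl2, Egr1 and Fos lie off it.

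The genes with the pair of ratios most like that of Fosl2, by the straight-line distance between the ratios on both arrays among 14015 genes with a signal of at least 100, were Aim1, Cyfip2, Slc12a2, Celsr2 and Clmn. Aim1 was nearest, at 0.47 on the female array against 1.01 on the male one and a distance of 0.0154. Cyfip2 was at 0.43 and 1.02, Slc12a2 at 0.48 and 1.05, Celsr2 at 0.46 and 1.06, and Clmn at 0.39 and 1.01. Likeness over 2 arrays is a description only.

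Of 34 other immediate early genes, 31 were tested, and 17 of these (54.8%) were higher and 4 (12.9%) lower in the Pparg-cKO pool on both arrays, with 10 of opposite signs. With median centring the counts were 13 higher and 3 lower. None was called by limma. At an unadjusted p under 0.05 there were 5 of 31, beside 8.51% of all genes tested, and 2 passed the fold rule, which 1.84% of all genes with the required signal did. Their median log2 ratio was 0.16 where that of all genes tested was 0.01. It was 0.04 on the female array alone and 0.22 on the male array alone. Of the 31, 18 were above 0 on the female but 26 on the male array. Of all genes tested, 48.2% and 52.3% were above 0 on these arrays.

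Gadd45b, which encodes a stress sensor of the growth arrest and DNA damage family, passed the rule. Its signal was 657 in the Pparg-cKO and 366 in the control pool on the female array, then 875 and 423 on the male one, so that both Pparg-cKO pools lay above both control pools. The mean log2 ratio was 0.96 ± 0.16 (SD, n = 2) or 1.94-fold higher, with an interval of 0.66 to 1.25 and an adjusted p of 0.0510 in limma, which was 0.00370 without the background offset and 0.0458 with the median over all probes. Btg2, an antiproliferative gene that p53 induces, was the other. It read 824 and 1416 on the female array, then 807 and 1421 on the male one, both Pparg-cKO pools being lower, with a mean of -0.82 ± 0.05 (SD, n = 2), 1.76-fold lower, and limma's adjusted p at 0.0604. Without the background offset Btg2 was called (adjusted p = 0.00846, limma), and after median centring it no longer passed the fold rule.

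**Figure D4:**
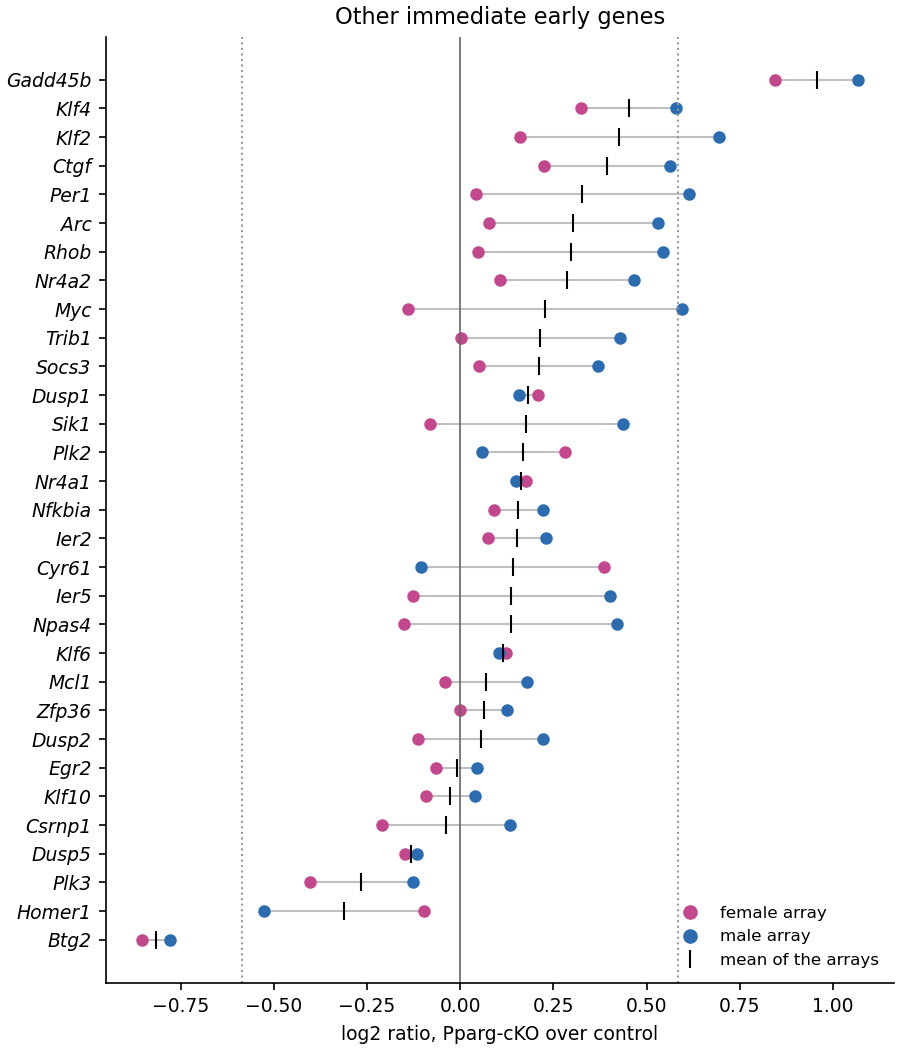
Log2 ratio of Pparg-cKO over control, in the deposited direction, of the 31 other immediate early genes tested, ordered by the mean of the arrays (black tick), with pink points for the female and blue points for the male array. Dotted lines mark 1.5-fold. Gadd45b at the top and Btg2 at the bottom are past 1.5-fold on both arrays, and 26 of the 31 blue points lie right of 0.

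Among 14 basic leucine zipper genes whose proteins can pair with FOS or JUN proteins or compete with them, 3 were higher and 4 lower on both arrays. Batf, whose protein pairs with JUN proteins in place of FOS and is best known from lymphocytes, was the only one past the fold rule and the only one called by limma. Its signal was 235 in the Pparg-cKO and 117 in the control pool on the female array, then 260 and 126 on the male one, without overlap between the genotypes. The log2 ratio was 0.91 on each array, 1.88-fold higher, with an interval of 0.65 to 1.17 and an adjusted p of 0.0437 in limma. The call was lost with scanner-processed signals (adjusted p = 0.0877), without the filter on dim probes (0.0719) and with the deposited table (0.533). The mean log2 ratio of Batf was 1.03, 0.91 and 1.02 in these settings, and it passed the fold rule in each. The summed signal of 6 macrophage and leukocyte markers was 11428 and 9889 on the female array, then 10473 and 10709 on the male one, with 3 of 6 higher and 1 lower on both arrays and Ptprc at 59.5 to 74.2. Itgam made up most of each sum, and the other 5 markers summed to 2923 and 2769 on the female array, then 2815 and 2610 on the male one. Cd52 was 1.29-fold higher (adjusted p = 0.509, limma). The part of these markers in the Batf difference was not tested.

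Of 21 genes for upstream kinases and for SRF and its cofactors, which switch on immediate early promoters, 7 were higher and 4 lower on both arrays, none passed the fold rule and none was called by limma, with 2 at an unadjusted p under 0.05. Among them Mapk10, which encodes the kinase JNK3 and is named after its values were seen, was 1.56-fold lower and past 1.5-fold on both arrays (adjusted p = 0.107, limma). Its signal, 29.6 and 56.9 on the female array, then 27.6 and 53.8 on the male one, was under 100. Heat shock genes, which cellular stress induces, were measured for 9 of 10. Of these, 4 were higher and 1 lower on both arrays, none passed the fold rule or was called by limma and none had an unadjusted p under 0.05. Their summed signal was 85452 in the Pparg-cKO and 82428 in the control pool on the female array, then 83632 and 83565 on the male one.

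Of 15 genes known as AP-1 targets in other tissues, 13 were tested, of which 3 were higher and 6 lower on both arrays. The list holds genes with a range of other inducers, and 2 passed the fold rule and were called by limma in opposite directions. Spp1, the gene of the secreted matrix protein osteopontin, read 894 in the Pparg-cKO and 132 in the control pool on the female array, then 1329 and 183 on the male one, 5.97-fold higher (adjusted p = 0.00620, limma). Ivl, which encodes the squamous envelope protein involucrin and which the study placed in superficial and intermediate urothelial cells, read 324 and 1279 on the female array, then 403 and 1306 on the male one. This is 3.41-fold lower, with an adjusted p of 0.0116 in limma. For both genes the pools of the genotypes did not overlap. The other 11 tested targets did not pass the rule. Among them Lor, which encodes the squamous envelope protein loricrin and is named after its values were seen, read 76.6 and 27.3 on the female array, then 142 and 29.4 on the male one. It was 2.79-fold higher (adjusted p = 0.0580, limma) and past 1.5-fold on both arrays, but its signal on the female array was under 100.

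Other cell types were followed by their markers beside the members. Smooth muscle markers summed to 103949 and 115207 on the female array, then 101331 and 116274 on the male one, with 0 of 6 higher and 3 of 6 lower in the Pparg-cKO pool on both arrays. Skeletal muscle markers were lower on both arrays in 4 of 5, with sums of 6446 and 6604 on the female array, then 5560 and 7550 on the male one, of which Acta1 made up most. Of 4 collecting duct markers 3 were tested, and Fxyd4 was 5.21-fold higher, past the fold rule and called (adjusted p = 0.00620, limma). Aqp2, the defining one, read 21.8 to 28.1 in all pools and was lower on both arrays, while Avpr2 was higher on both, at 0.14 on the female array against 0.25 on the male one. None of the 24 genes marking lamina propria, endothelium, leukocytes, blood and nerve passed the fold rule or was called by limma, and 4 had an unadjusted p under 0.05. The part of any of these cell types in the ratios of Fosl2, Fos and Egr1 was not tested.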

How the data were processed

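The scanner files held, per the file headers, spot intensity on a linear scale from Agilent Feature Extraction 10.7.3.1: mean signal, median background and a processed signal. The deposited value table held signed fold changes made by the authors in steps not given in the sources used here; log2 of their size, with the sign, served as an alternative and set the direction (median 0 on both arrays). Mean signal was corrected with normexp (offset 50) and each array normalised by loess with limma 3.58.1 (R 4.3.3), control spots having weight 0. Spots flagged as outliers (2.87% on the female, 3.24% on the male array) were left out and the 4 spots of a probe averaged. No spot was saturated. A gene took its brightest probe and was tested where each array had a channel well above background. limma fitted the mean of both ratios, in a two-sided test adjusted by Benjamini-Hochberg across 22499 genes. Arrays are the replicates, so their number limits the precision. Controls were littermates per the methods. Whether female and male pools shared litters is not given in the sources used here, so p-values cover only these arrays. limma moderated each gene's spread between the arrays toward that of all genes tested (4.00 prior and 1 residual degrees of freedom). All 11 member probes matched a RefSeq transcript under the same symbol. The genes and lists were chosen with earlier results of these data known. Named were all members, list genes past the fold rule or called, and the 5 genes nearest to Fosl2; other names were chosen after their values were seen. Alternatives were background correction, centring, probe and filter rules, signal threshold, the deposited table and single arrays. The limma step was checked on simulated data. The array difference of 1 list gene is not reported here.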

Additional observations from a re-analysis of the deposited data

Results flagged for a closer look

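Among 144 genes of the lists compared, 2 moved in opposite directions, each time by 1.2-fold or more, on the female and the male array, and neither was a member. This is close to the share among all genes tested, 1.38%. No test of that difference could be made, and it was not tested, because a sex had 1 array and 1 dye orientation. Rps6ka3, which encodes a kinase downstream of ERK, was at -0.70 on the female and 0.47 on the male one, a difference of 1.18 on the log2 scale. Krt5, a marker of basal urothelial cells, was at -0.86 and 0.35, a difference of 1.203.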

How the results depend on the processing

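The count of members past the fold rule stayed at 0 under each alternative with both arrays and ranged from 0 to 2 on single arrays, the 2 being Fos and Fosl2 on the male array alone. With 1 array there is no spread and no test. The count of members called by limma was 0 in each alternative except normexp without an offset, where it was 1, Fosl2. The log2 ratio of Fosl1, not well above background in any pool, turned from -0.01 to 0.00664 without an offset and to 0.0513 with scanner-processed signals. All other members kept the sign of their mean with both arrays. Fos ran from -0.59 to -0.42 with an adjusted p of 0.108 to 0.973, Fosl2 from 0.37 to 0.77 with 0.0423 to 0.555, and Egr1 from 0.33 to 0.43 with 0.422 to 0.948. The number of genes called by limma was 169 in all, 571 without an offset, 94 without the filter on dim probes and 0 with the deposited table. No paired analysis was possible because each array already holds the ratio within a pair and there is 1 group of ratios. With 2 arrays, sex and dye orientation cannot be separated from the spread between pools.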
